A study of Homo sapiens with 6 samples.

Results

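The genes described here are 37 direct transcriptional targets of the tumour suppressor p53. They were picked by symbol from among the 28395 NCBI Gene IDs of the count tables, with earlier results of these data known. The genes cover DNA repair, death receptors, cell death, growth arrest and metabolism, and all 37 symbols had an ID. Of these, 36 passed the filter on low counts and were tested. The remaining gene, SPATA18, which encodes a regulator of mitochondrial quality, had 0 counts in each library, where a count of 0 allows a level of up to 0.144 to 0.175 CPM (3 counts per library, counting error only). The cells were A375, an established human melanoma line, grown in RPMI medium and treated for 72 h. The groups were 500 nM GSK3326595, an inhibitor of the protein arginine methyltransferase PRMT5, 1 µM palbociclib, an inhibitor of the cell cycle kinases CDK4 and CDK6, and 0.01% DMSO as the vehicle control, with 2 libraries in each. All groups share the one cell line, and the labels do not say whether the 2 libraries of a group came from separate cultures. P-values therefore rest on a spread between libraries that may be technical only.

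p53 is a transcription factor that is kept at a low level by the ubiquitin ligase MDM2 and held inactive by its relative MDM4. When it is released from them it binds response elements, which consist of a pair of 10-base units, in the promoters and first introns of its targets. The targets then slow the cell cycle, repair DNA, adjust metabolism or prepare the cell for death, and MDM2, itself a target, closes the loop. The correct splicing of the MDM4 transcript is known to need PRMT5.

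Each library held between 16589153 and 20842099 counts. Levels are given as CPM, counts per 1000000 after TMM scaling, and differences as log2 fold changes ± an approximate standard error (SE). A gene was called at an edgeR adjusted p under 0.05, with Benjamini-Hochberg adjustment over all 16381 genes tested. Each fit was repeated under 13 alternative settings, 6 of them leaving out 1 library. Where such a leave-out changed a call named below, its adjusted p is given with the range over the 13. For PPP1R13L the log2 fold change of the leave-out is given instead. The calls of the cell type markers were not checked in this way. Of the 10 melanocyte lineage markers, SOX10, MITF and CSPG4 averaged 178, 59.2 and 859.7 CPM in DMSO. The rest of that list was low in DMSO. The pigment gene TYR was at 0 and MLANA at 1.39 CPM. DCT, PMEL, MIA, S100A1 and S100B averaged between 0 (DCT) and 3.402 CPM (S100B). Blood cell markers summed to between 0.208 and 1.05 CPM over 4 genes, endothelial markers to between 2.21 and 4.72 CPM over 3 and fibroblast markers to between 21.1 and 30.2 CPM over 5. The 4 epithelial markers summed to 3.21 and 4.08 CPM with GSK3326595, 7.77 and 9.75 CPM with palbociclib and 2.40 and 2.499 CPM with DMSO, with CDH1 at 0 in both DMSO libraries. In the melanocyte list, S100B and S100A1 were called higher with palbociclib against DMSO, 3.16-fold and 2.23-fold (edgeR adjusted p = 3.15e-05 and 0.00451). MITF was called higher with GSK3326595, 1.40-fold (edgeR adjusted p = 0.00324). Between the inhibitors MITF was higher with GSK3326595, and SOX10, S100B and S100A1 were lower. Of the other lists, KRT14 (epithelium) and LUM (fibroblast) were called higher with palbociclib against DMSO, 3.62-fold and 4.27-fold (edgeR adjusted p = 7.98e-05 and 6.54e-05), and PDGFRB (fibroblast) and PECAM1 (endothelium) lower. The part of such cells in the results was not tested. Within the GSK3326595 group 26 of the 36 members were higher in replicate 2 than in replicate 1, with a median ratio of 1.12, against 21 of 36 in the palbociclib group and 20 of 36 in the DMSO group. The same share over all tested genes was not computed, so whether this is particular to the members is not known. The strand setting of the counting is not given in the sources used here. In the GENCODE 29 annotation, exons of 16 of the 37 members overlap exons of another gene, with the longest overlaps at FBXO22 (1917 bases shared with NRG4) and TIGAR (1711 bases shared with AC008012.1), so the counts of these 16 may include reads of a neighbour.

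RefSeq promoter windows of GRCh38.p14, from 250 bases before to 50 bases after an annotated start, were at hand for 27 of the 37 members, in 38 windows. They were searched for the p53 response element, a pair of 10-base units of the standard consensus with a spacer of 0 to 13 bases, at most 2 mismatches in all and none at the fixed C and G of each unit. The consensus reads the same on both strands. A match stood in 5 of the 38 member windows (13.2%) and in 1030 of all 35116 windows (2.93%). With a spacer of 0 only, the counts were 4 member windows and 100 of all windows, and with at most 1 mismatch they were 2 and 141. The DDB2 window held 3 matches and the FAS window 2. For each of the 5 windows the match with the fewest mismatches, then the shortest spacer, is printed, 5′ to 3′ in the direction of the gene, with the 10-base units in capitals, because each belongs to a gene that rose with both inhibitors or with GSK3326595. They are a description of the letters, not a measured binding site.
DDB2 (GRCh38 chr11:47214979-47214999, plus strand): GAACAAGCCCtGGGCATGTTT
PTCHD4 (GRCh38 chr6:48111198-48111257, minus strand): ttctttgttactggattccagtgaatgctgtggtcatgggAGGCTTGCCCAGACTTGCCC
FAS (GRCh38 chr10:88991269-88991368, plus strand): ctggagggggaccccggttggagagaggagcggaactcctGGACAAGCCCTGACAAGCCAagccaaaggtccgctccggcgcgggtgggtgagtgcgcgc
AEN (GRCh38 chr15:88621266-88621339, plus strand): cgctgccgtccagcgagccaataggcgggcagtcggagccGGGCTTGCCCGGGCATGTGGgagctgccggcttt
FDXR (GRCh38 chr17:74872995-74873065, minus strand): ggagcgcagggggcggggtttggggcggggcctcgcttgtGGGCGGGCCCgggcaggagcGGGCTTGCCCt
The elements of DDB2 and PTCHD4 had 0 mismatches, with a spacer of 1 base in DDB2 and 0 in PTCHD4. The other 3 had 2 mismatches each, and the units of FDXR lie 10 bases apart. The DDB2 element lies just after an annotated start, at positions 6 to 26, and the others lie upstream of one. In many targets the known element sits outside such windows, so a window without a match says nothing of p53 binding.

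Most of the targets rose with each inhibitor, among them lesion recognition, death receptor, arrest and metabolic genes. With GSK3326595 against DMSO, 32 of the 36 measured members (88.9%) rose, none fell and 4 were not called by edgeR, beside 8.58% of all tested genes called higher and 10.2% called lower. Lower at an unadjusted p under 0.05 were 2, POLK and TNFRSF10C, and 0 were lower by DESeq2. With palbociclib against DMSO, 27 rose, 2 fell and 7 were not called, beside 19.3% of all tested genes called higher and 20.2% called lower. The members were chosen with earlier results of these data known, so these shares are no independent measure of p53 targets at large. Of 54 further direct targets tested, also so chosen, 28 rose (51.9%) and 1 fell with GSK3326595. With palbociclib 23 of them rose (42.6%) and 5 fell. The median log2 fold change over the members was 0.89 for GSK3326595 and 0.60 for palbociclib, with medians of all genes at -0.0011 and -0.02. Rises of at least 2-fold were called for 16 members with GSK3326595 and 7 with palbociclib. The share of all tested genes with such a rise was not computed. Among these calls, ACER2 with GSK3326595 and TNFRSF10C with palbociclib were lost in some leave-outs.

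Summed over all members, the level was 2749 and 2988 CPM after GSK3326595, 2129.8 and 2143 CPM after palbociclib and 1574 and 1553 CPM in DMSO. The 3 groups do not overlap in this sum. In bulk RNA a rise in every cell and a larger share of cells with high levels cannot be told apart. The comparisons with DMSO share the same 2 control libraries. Leaving out 1 library at a time, 29 of the 32 calls with GSK3326595 were kept throughout and 19 of the 29 calls with palbociclib. The number called higher with palbociclib ranged from 19 (without palbociclib replicate 2) to 28 in these fits.

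**Figure D1:**
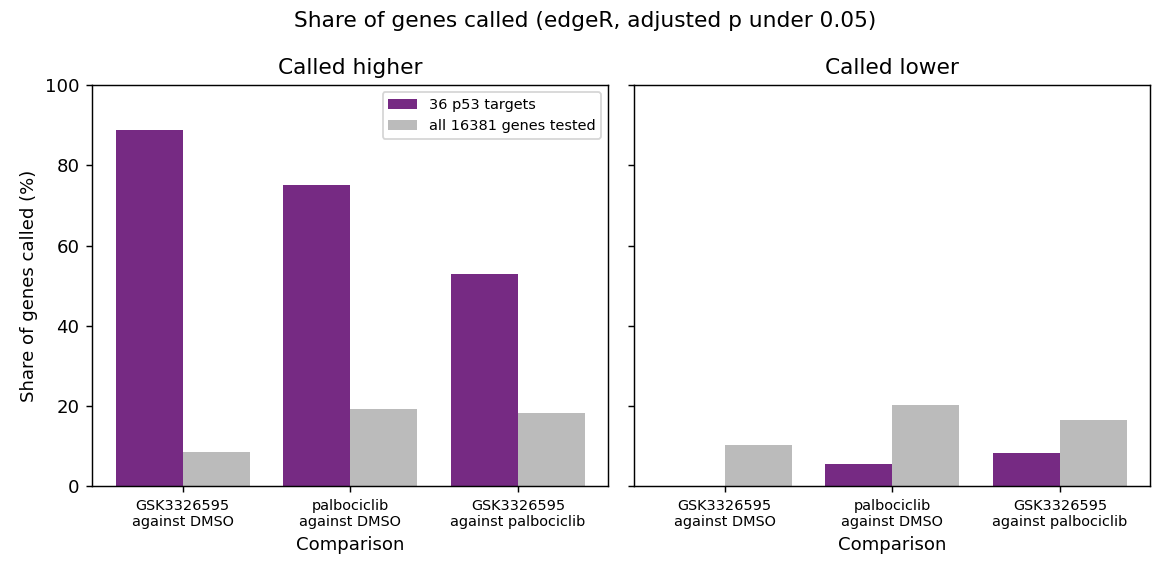
Share of genes called by edgeR at an adjusted p under 0.05, higher (left) and lower (right), for the 36 measured p53 targets and for all 16381 genes tested, in each of the 3 comparisons. The targets stand at 88.9%, 75.0% and 52.8% called higher, against 8.58%, 19.3% and 18.2% of all genes. The targets were chosen with earlier results of these data known.

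**Figure D2:**
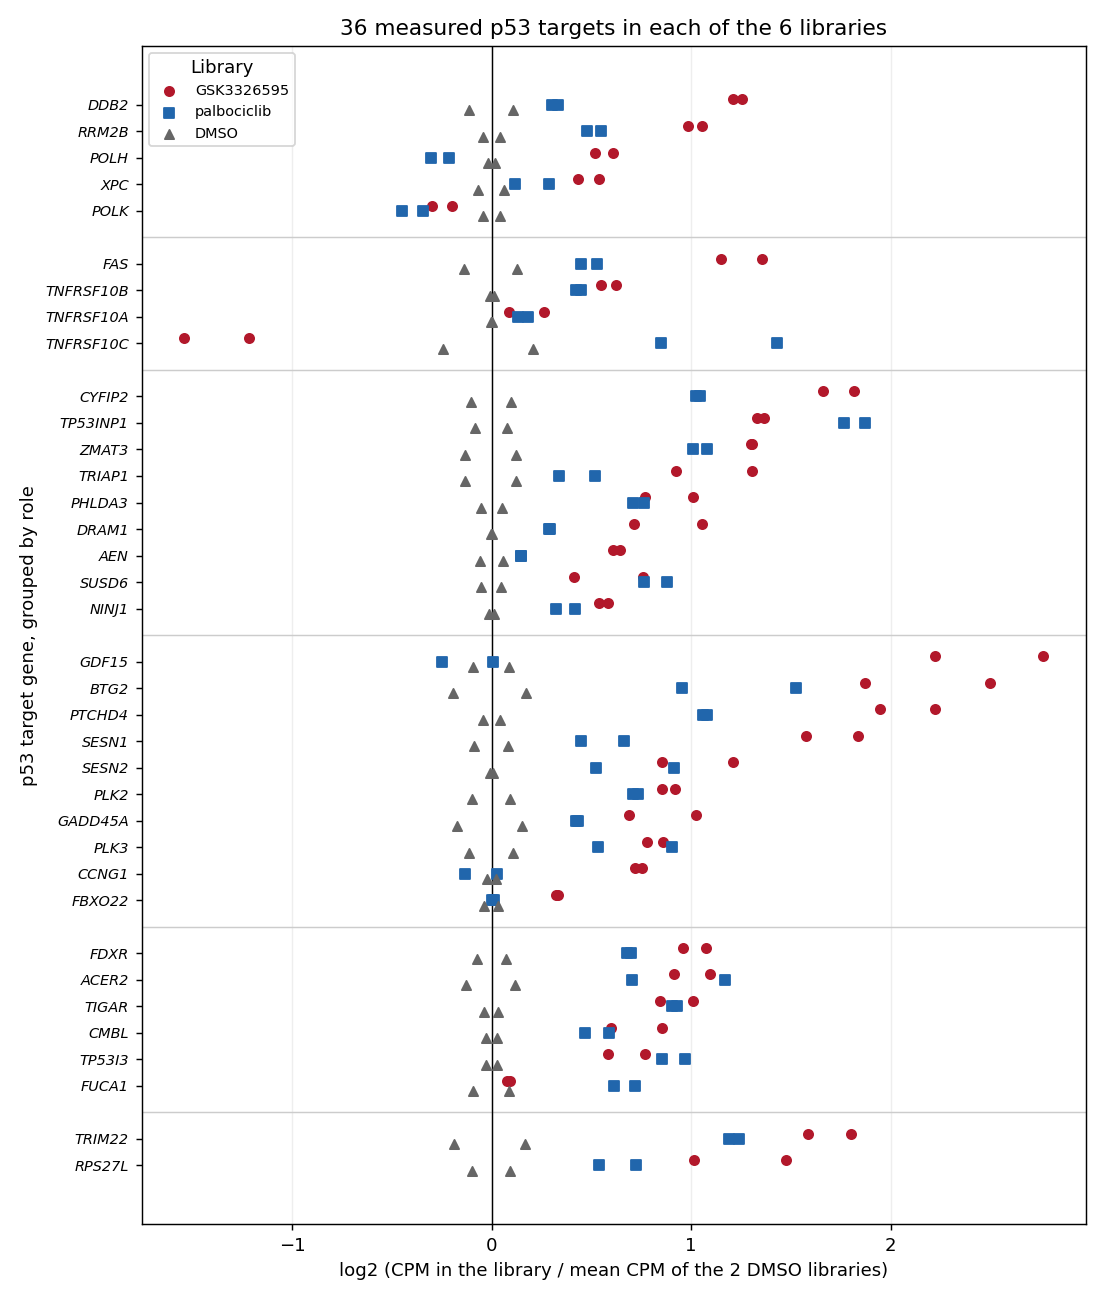
Level of each of the 36 measured p53 targets in each library, as log2 of the CPM over the mean CPM of the 2 DMSO libraries, grouped by role in the order repair, death receptors, cell death, growth arrest and signalling, metabolism and other. Most GSK3326595 points lie right of the palbociclib points, and TNFRSF10C and POLK have their GSK3326595 points left of 0.

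Among the 5 repair and nucleotide supply genes, 4 rose with GSK3326595, while with palbociclib 2 rose and 2 fell. DDB2 (Gene ID 1643, GRCh38 chromosome 11, 47214454 to 47239217), which encodes the subunit that recognises UV lesions for nucleotide excision repair, was at 124 and 120.3 CPM after GSK3326595, 64.0 and 65.4 CPM after palbociclib and 55.9 and 47.9 CPM in DMSO. Both GSK3326595 libraries were well above the rest, and the palbociclib libraries lay just above DMSO. The log2 fold change was 1.23 ± 0.0920 (edgeR adjusted p = 1.89e-05) for GSK3326595 and 0.32 ± 0.0923 (edgeR adjusted p = 0.0164) for palbociclib against DMSO. That palbociclib rise was lost without palbociclib replicate 1 or 2 or DMSO replicate 2 (edgeR adjusted p = 0.0727, 0.105 and 0.15, range 0.000293 to 0.15). Between the inhibitors DDB2 differed by 0.92 ± 0.0905 (edgeR adjusted p = 2.82e-05). RRM2B, the p53-inducible small subunit of ribonucleotide reductase, was at 119 and 125 CPM with GSK3326595, 87.8 and 83.7 CPM with palbociclib and 58.3 and 61.9 CPM with DMSO. Its 3 groups did not overlap, with changes of 1.02 ± 0.0825 (edgeR adjusted p = 2.46e-05) for GSK3326595 and 0.51 ± 0.0825 (edgeR adjusted p = 0.00045) for palbociclib.

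The 2 translesion polymerase genes did not follow this order, since both were lower with palbociclib than in DMSO. POLH, whose product copies past UV lesions, was at 85.2 and 90.6 CPM after GSK3326595, 48.2 and 51.3 CPM after palbociclib and 58.7 and 60.1 CPM in DMSO. It was the only member called in opposite directions, above DMSO with GSK3326595 and below it with palbociclib, without overlap. The changes were 0.56 ± 0.0863 (edgeR adjusted p = 0.000992) for GSK3326595, -0.26 ± 0.0873 (edgeR adjusted p = 0.0343) for palbociclib and 0.82 ± 0.0868 (edgeR adjusted p = 4.29e-05) for GSK3326595 against palbociclib. The fall with palbociclib was lost without palbociclib replicate 1 or 2 or DMSO replicate 1 or 2 (edgeR adjusted p = 0.246, 0.101, 0.0985 and 0.198, range 0.00292 to 0.246). POLK, a related polymerase, was at 32.5 and 30.4 CPM with GSK3326595, 29.4 and 27.3 CPM with palbociclib and 36.2 and 38.5 CPM with DMSO. It was lower than DMSO in all 4 treated libraries, with -0.25 ± 0.102 (edgeR adjusted p = 0.113), not called, for GSK3326595 and -0.40 ± 0.102 (edgeR adjusted p = 0.00858) for palbociclib. Its palbociclib call was lost without palbociclib replicate 2 or DMSO replicate 2 (edgeR adjusted p = 0.0906 and 0.0725, range 0.000223 to 0.0906). XPC, the lesion-sensing partner in nucleotide excision repair, was at 83.1 and 77.2 CPM with GSK3326595, 62.2 and 70.0 CPM with palbociclib and 59.8 and 54.7 CPM with DMSO. It rose with GSK3326595 by 0.49 ± 0.0953 (edgeR adjusted p = 0.00463) and was not called with palbociclib, at 0.21 ± 0.0953 (edgeR adjusted p = 0.103).

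The 4 death receptor genes behaved unlike each other. FAS, the receptor for FAS ligand, was at 33.2 and 38.3 CPM after GSK3326595, 20.4 and 21.6 CPM after palbociclib and 13.6 and 16.3 CPM in DMSO, and no group overlapped another. It rose by 1.25 ± 0.125 (edgeR adjusted p = 6.65e-05) with GSK3326595 and by 0.49 ± 0.127 (edgeR adjusted p = 0.0094) with palbociclib, and the difference between the inhibitors was 0.77 ± 0.121 (edgeR adjusted p = 0.00055). For FAS, the palbociclib call was lost without palbociclib replicate 2 or DMSO replicate 1 (edgeR adjusted p = 0.0667 and 0.0886, range 0.000104 to 0.0886). TNFRSF10B, a receptor for the death ligand TRAIL, rose by 0.59 ± 0.0798 (edgeR adjusted p = 0.000458) with GSK3326595 and 0.43 ± 0.0796 (edgeR adjusted p = 0.00109) with palbociclib. TNFRSF10A, the other TRAIL receptor with a death domain, was at 39.1 and 44.1 CPM with GSK3326595, 40.2 and 41.7 CPM with palbociclib and 36.9 and 36.6 CPM with DMSO. It was the one measured member called in none of the 3 comparisons, at 0.18 ± 0.100 (edgeR adjusted p = 0.24) for GSK3326595 and 0.16 ± 0.0996 (edgeR adjusted p = 0.232) for palbociclib. TNFRSF10C, a decoy receptor for TRAIL without a death domain, was barely detected. It had 5 and 4 counts after GSK3326595, 24 and 38 counts after palbociclib and 14 and 11 counts in DMSO. Its levels were lowest with GSK3326595 and highest with palbociclib, at -1.34 ± 0.544 (edgeR adjusted p = 0.108) and 1.17 ± 0.390 (edgeR adjusted p = 0.0315) against DMSO and -2.51 ± 0.474 (edgeR adjusted p = 0.00171) between the inhibitors. With so few counts, the palbociclib call was lost without palbociclib replicate 2 or DMSO replicate 1 or 2 (edgeR adjusted p = 0.27, 0.0635 and 0.167, range 0.0115 to 0.27). The TNFRSF10 genes resemble each other in sequence and lie close together on chromosome 8, which makes the assignment of reads to each of them uncertain.

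All 9 measured cell death genes rose with GSK3326595, and 7 of 9 with palbociclib. CYFIP2, which encodes a subunit of the actin-regulating WAVE complex, was at 52.6 and 58.6 CPM after GSK3326595, 33.9 and 34.3 CPM after palbociclib and 17.8 and 15.5 CPM in DMSO. Its groups were widely apart, with changes of 1.74 ± 0.111 (edgeR adjusted p = 1.36e-05) and 1.04 ± 0.112 (edgeR adjusted p = 2.25e-05) against DMSO and 0.70 ± 0.105 (edgeR adjusted p = 0.000377) between the inhibitors. ZMAT3, an RNA-binding zinc finger protein, was at 113 and 113 CPM with GSK3326595, 96.7 and 92.1 CPM with palbociclib and 49.8 and 41.8 CPM with DMSO. Both inhibitors raised it more than 2-fold, by 1.30 ± 0.0955 (edgeR adjusted p = 1.89e-05) and 1.05 ± 0.0952 (edgeR adjusted p = 5.8e-06). TRIAP1, a small mitochondrial protein that restrains apoptosis, was at 47.0 and 61.0 CPM with GSK3326595, 31.2 and 35.4 CPM with palbociclib and 22.5 and 26.9 CPM with DMSO, rising by 1.13 ± 0.139 (edgeR adjusted p = 0.000235) with GSK3326595 and 0.43 ± 0.140 (edgeR adjusted p = 0.0287) with palbociclib. The palbociclib call was lost without palbociclib replicate 2 or DMSO replicate 1 (edgeR adjusted p = 0.177 and 0.187, range 8.02e-05 to 0.187).

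TP53INP1, a stress protein that promotes autophagy and death, gave the reverse order. It was at 17.6 and 17.2 CPM after GSK3326595, 24.9 and 23.2 CPM after palbociclib and 7.20 and 6.46 CPM in DMSO. All 4 treated libraries were above DMSO, and the palbociclib libraries were the highest. Its change was 1.35 ± 0.132 (edgeR adjusted p = 6.57e-05) with GSK3326595 and 1.82 ± 0.129 (edgeR adjusted p = 8.71e-07) with palbociclib, the largest palbociclib rise among the members, and GSK3326595 was lower than palbociclib, at -0.47 ± 0.118 (edgeR adjusted p = 0.00921). That last call was lost without palbociclib replicate 1 (edgeR adjusted p = 0.0927, range 0.000295 to 0.0927). AEN, a nuclease that acts in apoptosis, was at 215 and 209.5 CPM with GSK3326595, 152 and 152 CPM with palbociclib and 132 and 143 CPM with DMSO. It rose with GSK3326595, by 0.63 ± 0.0819 (edgeR adjusted p = 0.000359), and was not called with palbociclib, at 0.15 ± 0.0819 (edgeR adjusted p = 0.172), although both palbociclib libraries lay above DMSO. DRAM1, a lysosomal membrane protein linked to autophagy, was at 41.4 and 52.4 CPM with GSK3326595, 30.9 and 30.8 CPM with palbociclib and 25.2 and 25.2 CPM with DMSO. Again GSK3326595 raised it, by 0.89 ± 0.120 (edgeR adjusted p = 0.00042), and the palbociclib difference of 0.29 ± 0.121 (edgeR adjusted p = 0.0745) was not called. It was called without GSK3326595 replicate 1 or 2 (edgeR adjusted p = 0.0256 and 0.0296, range 0.00919 to 0.198).

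The other 3 cell death genes were not called between the inhibitors. PHLDA3, a repressor of AKT signalling, rose by 0.90 ± 0.0958 with GSK3326595 and 0.74 ± 0.0955 with palbociclib (edgeR adjusted p = 9.25e-05 and 9e-05). NINJ1, a membrane protein that ruptures dying cells, rose by 0.56 ± 0.115 and 0.37 ± 0.115 (edgeR adjusted p = 0.00607 and 0.023), and its palbociclib call was lost without palbociclib replicate 1 or 2 or DMSO replicate 1 or 2 (edgeR adjusted p = 0.151, 0.0689, 0.0934 and 0.0705, range 0.00438 to 0.151). SUSD6, a transmembrane protein gene, rose by 0.60 ± 0.136 with GSK3326595 and 0.82 ± 0.134 with palbociclib (edgeR adjusted p = 0.0108 and 0.000467). Its GSK3326595 call was lost without GSK3326595 replicate 2 or DMSO replicate 2 (edgeR adjusted p = 0.0813 and 0.0637, range 5.04e-05 to 0.0813). The difference between the inhibitors for SUSD6, not called at -0.23 ± 0.130 (edgeR adjusted p = 0.195), was called without GSK3326595 replicate 2 (edgeR adjusted p = 0.0404, range 0.0404 to 0.723).

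All 10 growth arrest and signalling genes rose with GSK3326595 and 7 with palbociclib. GDF15 (Gene ID 9518, GRCh38 chromosome 19, 18386158 to 18389176), a secreted stress cytokine, was at 71.3 and 103 CPM after GSK3326595, 12.9 and 15.3 CPM after palbociclib and 14.3 and 16.2 CPM in DMSO. The GSK3326595 libraries were far above the rest and differed from each other, while palbociclib and DMSO overlapped. The changes were 2.52 ± 0.168 (edgeR adjusted p = 1.36e-05) for GSK3326595, -0.12 ± 0.177 (edgeR adjusted p = 0.634) for palbociclib and 2.63 ± 0.168 (edgeR adjusted p = 2.96e-06) between the inhibitors, the largest GSK3326595 rise and the largest gap between inhibitors in the list. CCNG1, which encodes cyclin G1, was at 329.9 and 338 CPM with GSK3326595, 204 and 183 CPM with palbociclib and 203 and 197 CPM with DMSO. It shared the GDF15 pattern on a smaller scale, with 0.74 ± 0.0879 (edgeR adjusted p = 0.000185) for GSK3326595, -0.05 ± 0.0878 (edgeR adjusted p = 0.675) for palbociclib and 0.79 ± 0.0879 (edgeR adjusted p = 6.11e-05) between them. FBXO22, a substrate adaptor of a ubiquitin ligase, was at 59.3 and 58.8 CPM with GSK3326595, 47.5 and 47.1 CPM with palbociclib and 45.9 and 48.2 CPM with DMSO. Its rise with GSK3326595, 0.33 ± 0.0887 (edgeR adjusted p = 0.0241), was the smallest called in the list and was lost without GSK3326595 replicate 1 or 2, palbociclib replicate 1 or 2 or DMSO replicate 1 or 2 (edgeR adjusted p = 0.0604, 0.0586, 0.0527, 0.053, 0.192 and 0.0758, range 0.000747 to 0.192). With palbociclib the difference was 0.01 ± 0.0889 (edgeR adjusted p = 0.959).

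BTG2 (Gene ID 7832, GRCh38 chromosome 1, 203305519 to 203309602), an antiproliferative cofactor of mRNA deadenylation, was at 61.0 and 93.9 CPM after GSK3326595, 32.3 and 47.9 CPM after palbociclib and 14.6 and 18.7 CPM in DMSO. Replicates differed most at this gene in the GSK3326595 group, with replicate 2 at 1.54 times replicate 1, yet the groups did not overlap. It rose by 2.21 ± 0.220 (edgeR adjusted p = 6.65e-05) with GSK3326595 and 1.27 ± 0.221 (edgeR adjusted p = 0.000776) with palbociclib, and between the inhibitors by 0.95 ± 0.205 (edgeR adjusted p = 0.0038). PTCHD4, a Patched-like repressor of Hedgehog signalling and the bearer of a printed element with 0 mismatches, was at 28.6 and 34.5 CPM with GSK3326595, 15.6 and 15.5 CPM with palbociclib and 7.64 and 7.18 CPM with DMSO. Its 3 groups stood apart, with 2.09 ± 0.135 (edgeR adjusted p = 1.36e-05), 1.07 ± 0.139 (edgeR adjusted p = 8.94e-05) and 1.02 ± 0.124 (edgeR adjusted p = 0.000103) for GSK3326595 against DMSO, palbociclib against DMSO and GSK3326595 against palbociclib. SESN1, a sestrin that restrains mTORC1, was at 34.7 and 41.5 CPM with GSK3326595, 15.9 and 18.4 CPM with palbociclib and 10.9 and 12.3 CPM with DMSO. GSK3326595 raised it by 1.71 ± 0.133 (edgeR adjusted p = 1.98e-05) and palbociclib by 0.56 ± 0.137 (edgeR adjusted p = 0.00665), the palbociclib call being lost without palbociclib replicate 2 (edgeR adjusted p = 0.0728, range 3.38e-05 to 0.0728). Between the inhibitors SESN1 differed by 1.15 ± 0.128 (edgeR adjusted p = 6.03e-05).

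The other sestrin gene, SESN2, rose by 1.04 ± 0.151 and 0.73 ± 0.151 (edgeR adjusted p = 0.000664 and 0.00234) with GSK3326595 and palbociclib, and its inhibitor difference of 0.31 ± 0.145 (edgeR adjusted p = 0.116) was called without GSK3326595 replicate 1 or palbociclib replicate 2 (edgeR adjusted p = 0.0187 and 0.0391, range 0.00511 to 0.63). GADD45A, a stress sensor that arrests growth, was at 36.6 and 46.3 CPM with GSK3326595, 30.5 and 30.7 CPM with palbociclib and 25.3 and 20.2 CPM with DMSO. It rose with both, by 0.87 ± 0.137 (edgeR adjusted p = 0.0012) and 0.43 ± 0.137 (edgeR adjusted p = 0.0259). Its rise with palbociclib was lost without palbociclib replicate 1 or 2 or DMSO replicate 2 (edgeR adjusted p = 0.0796, 0.0933 and 0.175, range 0.000559 to 0.175). PLK2 and PLK3, stress-responsive polo-like kinases, rose with both inhibitors. PLK2 rose by 0.89 ± 0.0922 and 0.72 ± 0.0919 (edgeR adjusted p = 8.13e-05 and 7.98e-05). PLK3 rose by 0.82 ± 0.140 and 0.73 ± 0.139 (edgeR adjusted p = 0.00204 and 0.00143), and its GSK3326595 and palbociclib libraries overlapped.

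In the metabolic group 5 of 6 genes rose with GSK3326595 and all 6 with palbociclib. TIGAR, a fructose bisphosphatase that diverts sugar from glycolysis, rose by 0.93 ± 0.0985 with GSK3326595 and 0.92 ± 0.0980 with palbociclib (edgeR adjusted p = 8.47e-05 and 2.12e-05), a difference of 0.01 ± 0.0952 (edgeR adjusted p = 0.92). FUCA1, a lysosomal fucosidase, was at 26.5 and 26.2 CPM after GSK3326595, 40.8 and 37.9 CPM after palbociclib and 26.4 and 23.2 CPM in DMSO. The palbociclib libraries stood alone above the others, while GSK3326595 and DMSO overlapped. FUCA1 was not called with GSK3326595, at 0.09 ± 0.109 (edgeR adjusted p = 0.621), rose with palbociclib by 0.67 ± 0.106 (edgeR adjusted p = 0.000417), and was lower with GSK3326595 than with palbociclib, at -0.58 ± 0.106 (edgeR adjusted p = 0.00144). FDXR, a mitochondrial electron carrier reductase, was at 46.4 and 50.2 CPM with GSK3326595, 38.2 and 38.7 CPM with palbociclib and 22.6 and 25.0 CPM with DMSO. It rose by 1.02 ± 0.103 (edgeR adjusted p = 6.88e-05) and 0.69 ± 0.103 (edgeR adjusted p = 0.000263) with the 2 inhibitors, and the difference of 0.33 ± 0.0996 (edgeR adjusted p = 0.0227) was lost without GSK3326595 replicate 2 or palbociclib replicate 1 or 2 (edgeR adjusted p = 0.107, 0.129 and 0.109, range 0.00105 to 0.129).

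TP53I3, a quinone oxidoreductase, rose by 0.68 ± 0.110 and 0.91 ± 0.109 (edgeR adjusted p = 0.00144 and 4.78e-05), with both palbociclib libraries above both GSK3326595 libraries but no call between them, at -0.23 ± 0.106 (edgeR adjusted p = 0.108). CMBL, a hydrolase gene, rose by 0.73 ± 0.0969 and 0.53 ± 0.0967 (edgeR adjusted p = 0.000392 and 0.00106), and its difference between inhibitors, 0.20 ± 0.0956 (edgeR adjusted p = 0.124), was called without GSK3326595 replicate 1 (edgeR adjusted p = 0.0324, range 0.018 to 0.67). ACER2, an alkaline ceramidase, rose by 1.00 ± 0.220 and 0.95 ± 0.217 (edgeR adjusted p = 0.00856 and 0.0044). Its GSK3326595 call was lost without DMSO replicate 1 (edgeR adjusted p = 0.0584, range 3.24e-05 to 0.0584). Its palbociclib call was lost without palbociclib replicate 2 (edgeR adjusted p = 0.0754, range 2.81e-05 to 0.0754). Outside these roles, TRIM22, a ubiquitin ligase of antiviral defence, was at 6.41 and 7.46 CPM with GSK3326595, 4.88 and 5.04 CPM with palbociclib and 2.40 and 1.87 CPM with DMSO. Although low, it rose by 1.7 ± 0.227 (edgeR adjusted p = 0.00041) and 1.22 ± 0.230 (edgeR adjusted p = 0.00135). RPS27L, a ribosomal protein paralogue, was at 95.4 and 131 CPM with GSK3326595, 68.6 and 78.0 CPM with palbociclib and 44.2 and 50.4 CPM with DMSO. It rose by 1.26 ± 0.137 (edgeR adjusted p = 0.000104) and 0.63 ± 0.137 (edgeR adjusted p = 0.00325), and it resembles RPS27 in sequence, so its share of reads is uncertain.

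The comparison of GSK3326595 with palbociclib asked whether the rises were graded. The order GSK3326595 above palbociclib above DMSO, with no overlap between the libraries of any 2 groups, held for 21 of 36 members (58.3%), beside 3.31% of all tested genes. GSK3326595 lay below palbociclib and above DMSO for 3 members, TP53INP1, SUSD6 and TP53I3, beside 6.87% of all tested genes. For 1 member, POLK, GSK3326595 lay above palbociclib and below DMSO, beside 9.7% of all tested genes. By edgeR, 19 members were higher with GSK3326595 than with palbociclib, 3 lower and 14 not called, beside 18.2% and 16.6% of all tested genes called higher and lower. Of the 54 further direct targets tested, 16 were called higher (29.6%) and 8 lower in this comparison. The median log2 fold change was 0.32 over the members and 0.03 over all genes. After GDF15, the largest differences in favour of GSK3326595 were those of SESN1, PTCHD4, BTG2, DDB2, POLH and CCNG1, and TNFRSF10C, FUCA1 and TP53INP1 were lower. Of the 22 calls, 16 were kept with each library left out in turn.

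The calls nearest the threshold did not hold in every leave-out. ZMAT3, at 0.26 ± 0.0919 (edgeR adjusted p = 0.0477), was lost without GSK3326595 replicate 1 or 2, palbociclib replicate 1 or 2 or DMSO replicate 1 or 2 (edgeR adjusted p = 0.114, 0.0903, 0.144, 0.262, 0.0617 and 0.0602, range 0.00177 to 0.262). XPC, at 0.28 ± 0.0945 (edgeR adjusted p = 0.0382), was lost without GSK3326595 replicate 1, palbociclib replicate 1 or 2 or DMSO replicate 1 or 2 (edgeR adjusted p = 0.178, 0.32, 0.0622, 0.0661 and 0.0653, range 0.00184 to 0.32). FBXO22, at 0.32 ± 0.0884 (edgeR adjusted p = 0.0147), was lost without GSK3326595 replicate 1 or palbociclib replicate 1 or 2 (edgeR adjusted p = 0.0553, 0.0966 and 0.108, range 0.000529 to 0.108). GADD45A, at 0.44 ± 0.134 (edgeR adjusted p = 0.0239), was lost without GSK3326595 replicate 2 or palbociclib replicate 1 or 2 (edgeR adjusted p = 0.178, 0.102 and 0.0932, range 0.000294 to 0.178). The calls of the other members between the inhibitors held in every leave-out, except for FDXR and TP53INP1. RRM2B was higher with GSK3326595 than with palbociclib by 0.51 ± 0.0810 (edgeR adjusted p = 0.000591) and AEN by 0.48 ± 0.0816 (edgeR adjusted p = 0.000897). TRIAP1 was higher by 0.70 ± 0.136 (edgeR adjusted p = 0.00207) and DRAM1 by 0.60 ± 0.118 (edgeR adjusted p = 0.00208). RPS27L was also higher, by 0.63 ± 0.134 (edgeR adjusted p = 0.00339), whereas TRIM22 was not called, at 0.48 ± 0.203 (edgeR adjusted p = 0.0845). A difference that was not called does not show that the inhibitors acted alike: for PHLDA3, PLK2, PLK3, NINJ1, TNFRSF10B, POLK and ACER2 it lay between 0.05 ± 0.203 and 0.19 ± 0.112.

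**Figure D3:**
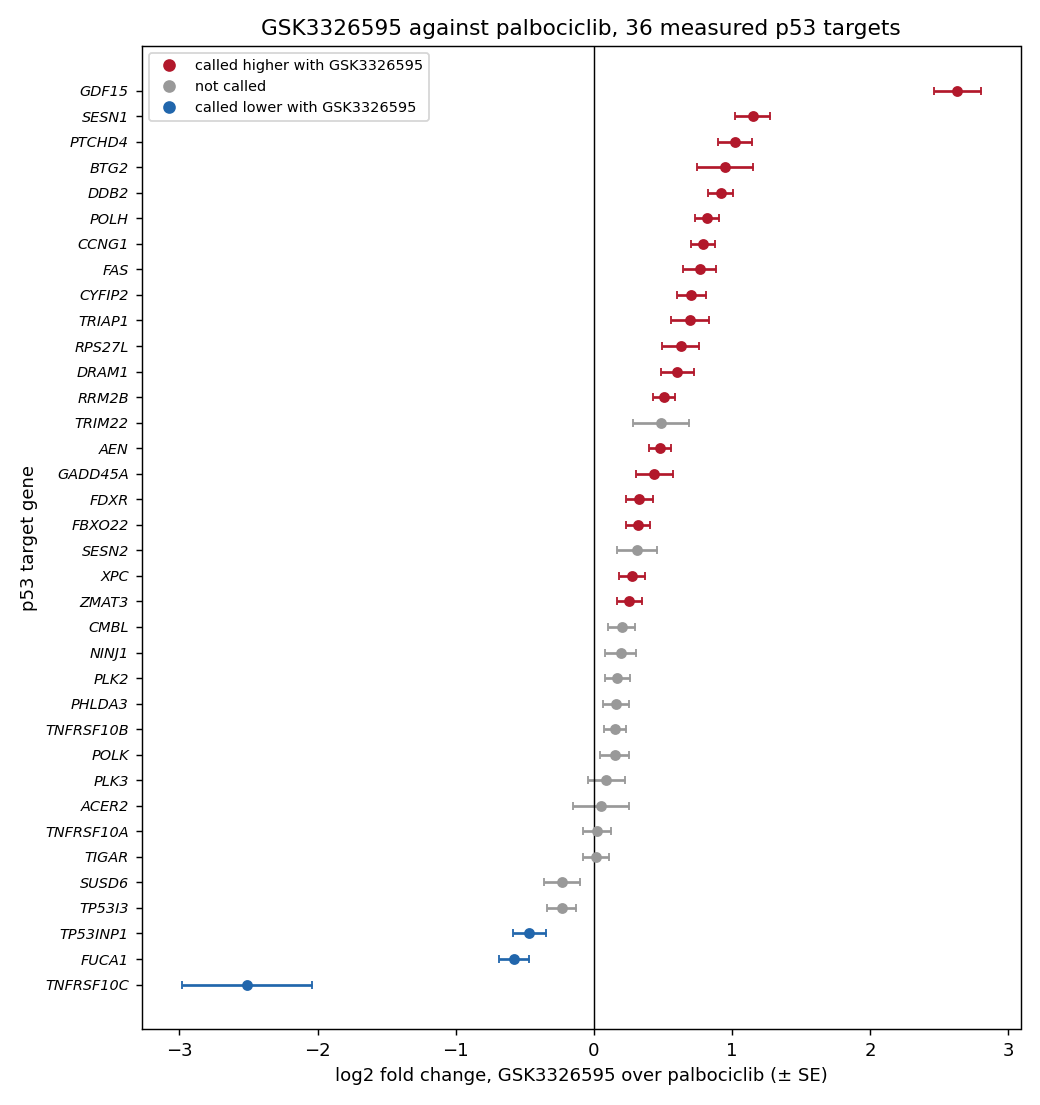
log2 fold change of GSK3326595 over palbociclib with its SE for each of the 36 measured p53 targets, in order of size, coloured by the edgeR call at an adjusted p under 0.05. GDF15 stands highest at 2.63 and TNFRSF10C, the least abundant member tested, lowest at -2.51.

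**Figure D4:**
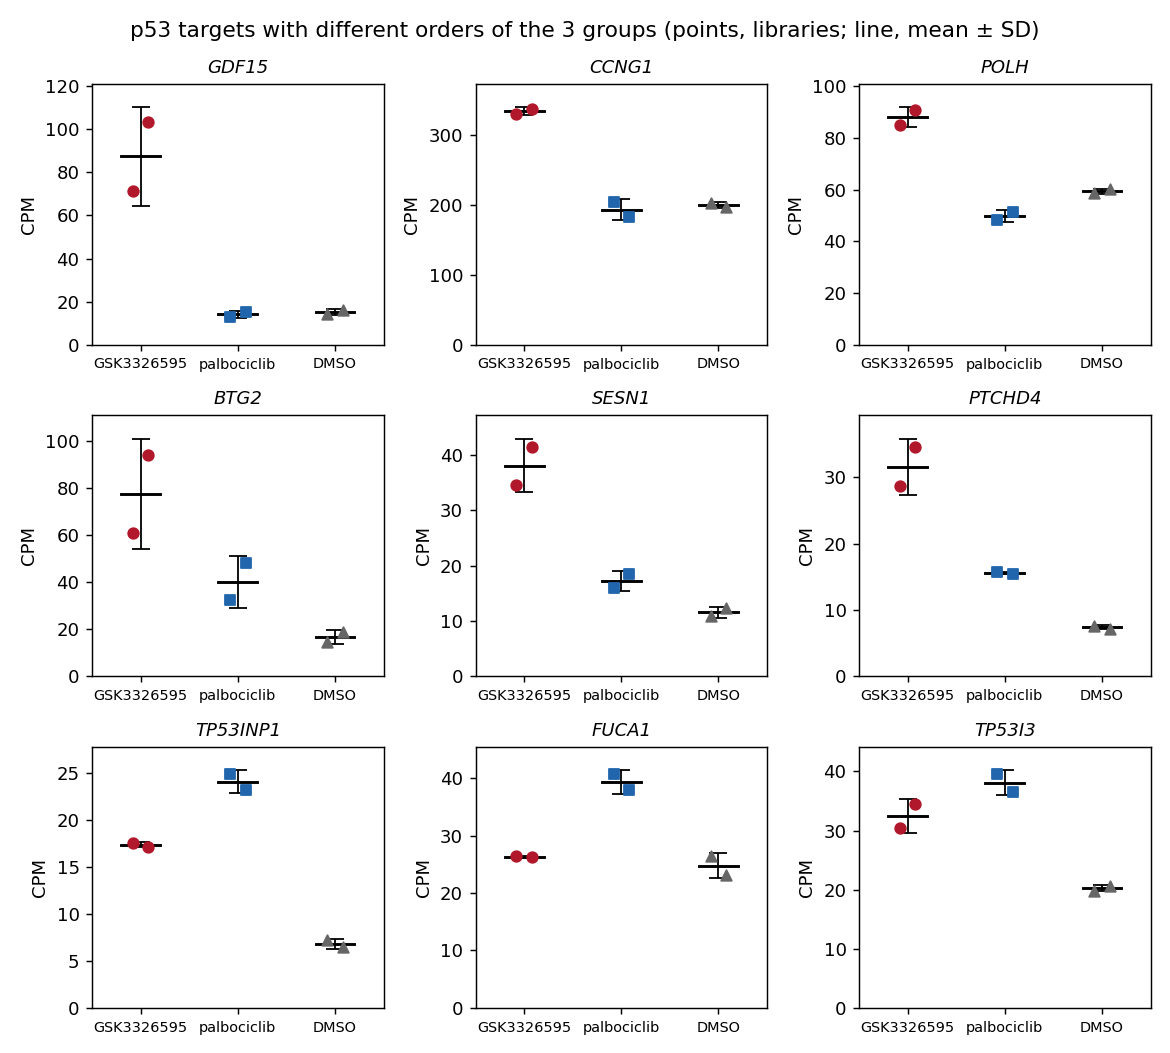
CPM in each library (points) with the mean ± SD (n = 2) for 9 p53 targets. The top row shows genes high with GSK3326595 and not raised by palbociclib (GDF15, CCNG1, POLH), the middle row genes in graded order (BTG2, SESN1, PTCHD4), and the bottom row genes highest with palbociclib (TP53INP1, FUCA1, TP53I3).

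Of 28 genes of the p53 regulatory circuit 27 were tested. With GSK3326595 1 rose and 5 fell, with palbociclib 1 rose and 9 fell, and between the inhibitors 9 were higher and 4 lower with GSK3326595. Of all tested genes, edgeR called 8.58% higher and 10.2% lower with GSK3326595, 19.3% and 20.2% with palbociclib, and 18.2% and 16.6% between the inhibitors. The 5 called lower with GSK3326595, named after their values were seen, were the kinases ATR, CHEK1 and CHEK2, the ubiquitin ligase HUWE1 and TP73. DESeq2 called 4 lower, CHEK1, HUWE1, TP73 and the kinase PRKDC, which edgeR did not call (edgeR adjusted p = 0.0593). The ATR call, -0.26 ± 0.0780 (edgeR adjusted p = 0.037), was lost without GSK3326595 replicate 1 or 2, palbociclib replicate 1 or 2 or DMSO replicate 1 or 2 (edgeR adjusted p = 0.0857, 0.128, 0.0871, 0.0873, 0.0803 and 0.18, range 0.0018 to 0.18), and it was not made by DESeq2. The HUWE1 call, -0.39 ± 0.104 (edgeR adjusted p = 0.0222), was lost without palbociclib replicate 1 or 2 or DMSO replicate 1 (edgeR adjusted p = 0.0583, 0.0578 and 0.137, range 5.76e-05 to 0.137). The gene that rose with each inhibitor was MDM2, at 611 and 719 CPM after GSK3326595, 364 and 374 CPM after palbociclib and 260.1 and 288 CPM in DMSO. It stood in the same graded order as most members, with 1.28 ± 0.105 (edgeR adjusted p = 2.61e-05) for GSK3326595, 0.43 ± 0.104 (edgeR adjusted p = 0.00649) for palbociclib and 0.85 ± 0.104 (edgeR adjusted p = 0.000106) between them. Its palbociclib call was lost without palbociclib replicate 2 or DMSO replicate 1 (edgeR adjusted p = 0.0588 and 0.069, range 1.26e-06 to 0.069).

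MDM4, by contrast, was lowest with palbociclib, at 184 and 131 CPM after GSK3326595, 102 and 82.3 CPM after palbociclib and 198 and 163 CPM in DMSO. It was not called with GSK3326595, at -0.19 ± 0.151 (edgeR adjusted p = 0.409), and fell with palbociclib, at -0.97 ± 0.153 (edgeR adjusted p = 0.0004). Counts per gene do not separate transcript forms, so the splicing of MDM4 was not measured. The GSK3326595 replicates were apart, and the gene was called lower with GSK3326595 when refitted without GSK3326595 replicate 1 (edgeR adjusted p = 0.0205, range 0.0149 to 0.921). PPM1D, a phosphatase that switches p53 off and is a known target, was at 30.7 and 39.8 CPM with GSK3326595, 22.9 and 27.5 CPM with palbociclib and 25.0 and 29.3 CPM with DMSO. It was not called against DMSO with either inhibitor, at 0.38 ± 0.143 (edgeR adjusted p = 0.0891) and -0.11 ± 0.144 (edgeR adjusted p = 0.577), and with GSK3326595 it was called without GSK3326595 replicate 1 (edgeR adjusted p = 0.00965, range 0.00132 to 0.493). Between the inhibitors PPM1D differed by 0.49 ± 0.143 (edgeR adjusted p = 0.0203), a call lost without GSK3326595 replicate 2 or palbociclib replicate 1 (edgeR adjusted p = 0.157 and 0.168, range 2.41e-05 to 0.168).

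TP73, a p53 family gene that E2F factors induce, was at 8.45 and 7.40 CPM with GSK3326595, 3.20 and 3.89 CPM with palbociclib and 13.9 and 10.9 CPM with DMSO. It fell with both inhibitors, at -0.64 ± 0.182 (edgeR adjusted p = 0.0291) and -1.80 ± 0.196 (edgeR adjusted p = 2.36e-05), and GSK3326595 exceeded palbociclib by 1.16 ± 0.203 (edgeR adjusted p = 0.0011). The fall with GSK3326595 was lost without GSK3326595 replicate 2 or DMSO replicate 1 (edgeR adjusted p = 0.0999 and 0.182, range 0.00108 to 0.182). CHEK2, a checkpoint kinase that phosphorylates p53, fell as well, at -0.50 ± 0.137 (edgeR adjusted p = 0.0248) and -0.58 ± 0.136 (edgeR adjusted p = 0.00536). The fall of CHEK2 with GSK3326595 was not called by DESeq2. Its GSK3326595 call was lost without GSK3326595 replicate 1 or DMSO replicate 2 (edgeR adjusted p = 0.0775 and 0.157, range 0.00136 to 0.157). Its palbociclib call was lost without DMSO replicate 2 (edgeR adjusted p = 0.0662, range 0.000105 to 0.0662). PPP1R13L, an inhibitor of p53, was low, at 4.25 and 4.19 CPM with GSK3326595, 2.18 and 1.54 CPM with palbociclib and 3.35 and 3.12 CPM with DMSO. It was not called with GSK3326595, at 0.38 ± 0.245 (edgeR adjusted p = 0.302). With palbociclib it fell, at -0.80 ± 0.264 (edgeR adjusted p = 0.0304), a call lost without palbociclib replicate 2 or DMSO replicate 1 or 2 (-0.56, -0.75 and -0.83). GSK3326595 exceeded palbociclib by 1.18 ± 0.259 (edgeR adjusted p = 0.00407), a call lost without palbociclib replicate 2 (0.95).

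Of 10 genes for p21 and the mitochondrial death pathway 9 were tested. With GSK3326595 4 rose and none fell by edgeR, with 1 lower at an unadjusted p under 0.05 (APAF1, the apoptosome scaffold) and 0 by DESeq2. With palbociclib 4 rose and 2 fell (PIDD1 and SIVA1), and between the inhibitors 5 were higher and 1 lower with GSK3326595. The shares of all tested genes called were 8.58% higher and 10.2% lower with GSK3326595, 19.3% and 20.2% with palbociclib, and 18.2% and 16.6% between the inhibitors. CDKN1A, which encodes the CDK inhibitor p21, was at 441 and 576 CPM after GSK3326595, 360.2 and 398 CPM after palbociclib and 147 and 143 CPM in DMSO. All treated libraries were far above DMSO, at 1.81 ± 0.123 (edgeR adjusted p = 1.36e-05) and 1.39 ± 0.122 (edgeR adjusted p = 4.22e-06). The inhibitors differed less than that, by 0.42 ± 0.118 (edgeR adjusted p = 0.0154), a call lost without GSK3326595 replicate 2 or palbociclib replicate 1 (edgeR adjusted p = 0.141 and 0.143, range 5.13e-06 to 0.143). BAX, a pore-forming death protein, was at 108 and 133 CPM with GSK3326595, 71.6 and 76.6 CPM with palbociclib and 57.1 and 59.5 CPM with DMSO. It rose by 1.05 ± 0.103 (edgeR adjusted p = 6.57e-05) and 0.35 ± 0.103 (edgeR adjusted p = 0.0187), the palbociclib call being lost without palbociclib replicate 2 or DMSO replicate 1 (edgeR adjusted p = 0.137 and 0.1, range 8.31e-05 to 0.137).

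BBC3, the death activator PUMA, was at 19.6 and 25.9 CPM with GSK3326595, 15.2 and 17.5 CPM with palbociclib and 8.81 and 10.2 CPM with DMSO, rising by 1.26 ± 0.159 (edgeR adjusted p = 0.000281) and 0.79 ± 0.161 (edgeR adjusted p = 0.00226). Its inhibitor difference of 0.47 ± 0.151 (edgeR adjusted p = 0.0287) was lost without GSK3326595 replicate 2 or palbociclib replicate 1 or 2 (edgeR adjusted p = 0.253, 0.194 and 0.0562, range 0.000359 to 0.253). PIDD1, a p53-induced death domain protein, resembled POLH, being above DMSO with GSK3326595 and below it with palbociclib. It was at 65.6 and 47.9 CPM with GSK3326595, 31.5 and 28.97 CPM with palbociclib and 42.4 and 37.2 CPM with DMSO, and its changes were 0.51 ± 0.138 (edgeR adjusted p = 0.0236), -0.40 ± 0.140 (edgeR adjusted p = 0.041) and, between the inhibitors, 0.91 ± 0.139 (edgeR adjusted p = 0.000454). The rise of PIDD1 was lost without GSK3326595 replicate 1 or DMSO replicate 2 (edgeR adjusted p = 0.149 and 0.124, range 6.27e-06 to 0.149). Its fall was lost without palbociclib replicate 1 or 2 or DMSO replicate 1 (edgeR adjusted p = 0.0815, 0.198 and 0.183, range 0.000199 to 0.198). PERP, a desmosome-associated death gene, was not called with GSK3326595, at 0.15 ± 0.122 (edgeR adjusted p = 0.426), and rose with palbociclib by 0.87 ± 0.121 (edgeR adjusted p = 0.000156). It was lower with GSK3326595 than with palbociclib, at -0.72 ± 0.121 (edgeR adjusted p = 0.000826).

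A further 56 direct targets, of which 54 were tested, were counted in the same way. With GSK3326595 28 rose and 1 fell, with a median of 0.41, and with palbociclib 23 rose and 5 fell, with a median of 0.26. Between the inhibitors 16 were higher and 8 lower with GSK3326595. Beside these counts, all tested genes were called at 8.58% higher and 10.2% lower with GSK3326595, 19.3% and 20.2% with palbociclib, and 18.2% and 16.6% between the inhibitors. GASK1B, a glycoprotein gene, was at 17.3 and 22.3 CPM with GSK3326595, 8.18 and 8.65 CPM with palbociclib and 4.07 and 3.07 CPM with DMSO. Its order was graded, with 2.47 ± 0.190 (edgeR adjusted p = 1.98e-05), 1.24 ± 0.199 (edgeR adjusted p = 0.000442) and 1.23 ± 0.170 (edgeR adjusted p = 0.000223) for the 3 comparisons. EDA2R, a receptor of the tumour necrosis factor family, was graded too, at 31.5 and 28.7 CPM with GSK3326595, 14.5 and 16.3 CPM with palbociclib and 8.92 and 10.3 CPM with DMSO, with 1.65 ± 0.130 (edgeR adjusted p = 2.08e-05) and 0.68 ± 0.134 (edgeR adjusted p = 0.00175) against DMSO. RNF144B, a ubiquitin ligase gene, rose by 1.44 ± 0.317 (edgeR adjusted p = 0.00898) and 1.41 ± 0.313 (edgeR adjusted p = 0.00382), and its GSK3326595 call was lost without GSK3326595 replicate 2 or DMSO replicate 1 (edgeR adjusted p = 0.051 and 0.0504, range 0.000313 to 0.051). MR1, which presents vitamin B metabolites to T cells, was at 13.7 and 12.8 CPM with GSK3326595, 34.8 and 31.5 CPM with palbociclib and 11.6 and 8.02 CPM with DMSO. It stood highest with palbociclib, at 1.76 ± 0.155 (edgeR adjusted p = 4.46e-06), and was lower with GSK3326595 than with palbociclib, at -1.33 ± 0.151 (edgeR adjusted p = 7.21e-05).

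**Figure D5:**
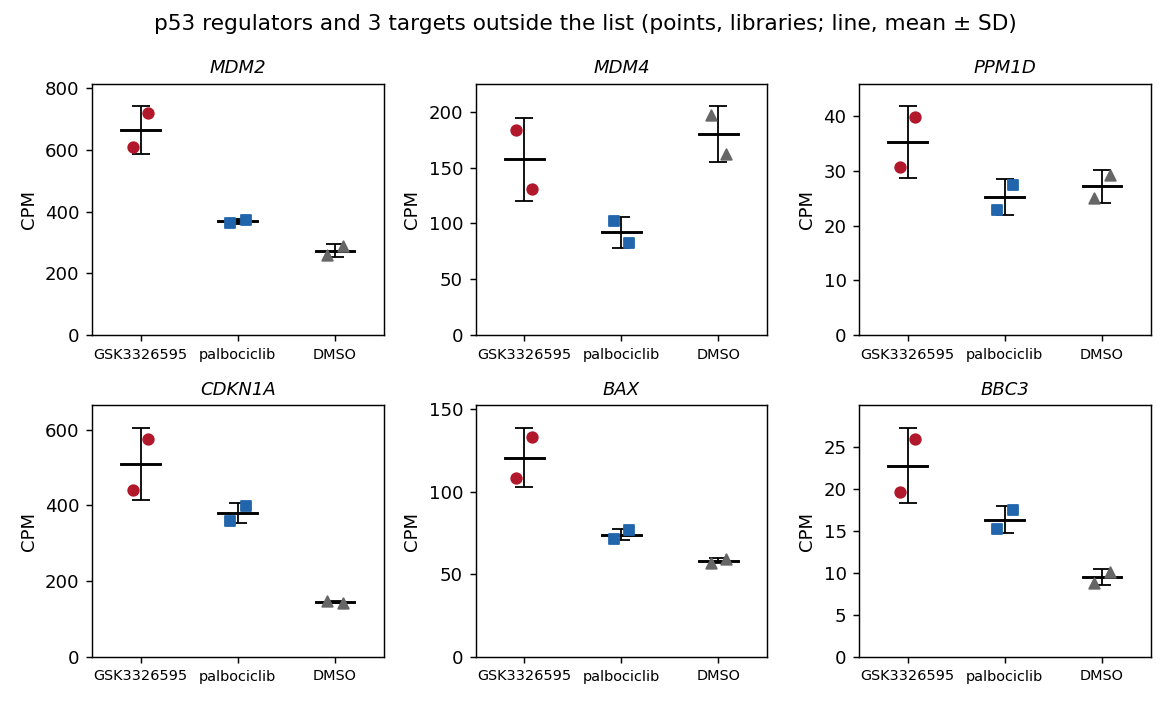
CPM in each library (points) with the mean ± SD (n = 2) for the p53 regulators MDM2, MDM4 and PPM1D and the targets CDKN1A, BAX and BBC3. MDM2, CDKN1A, BAX and BBC3 are graded, with GSK3326595 above palbociclib above DMSO, and MDM4 is lowest with palbociclib.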

How the data were processed

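RNA-seq counts from 6 libraries of A375 cells were used, 2 each with 500 nM GSK3326595, 1 µM palbociclib or DMSO for 72 h. Per the labels' protocols, rRNA-depleted TruSeq v2 libraries were made from RNeasy-purified RNA. The authors deposited raw, unscaled counts for each NCBI Gene ID. Build hg38 and the tools featureCounts 1.6.2, HISAT2, cutadapt 1.7, CASAVA 1.8.2 and limma stand in the submitters' processing notes. Not given in the sources used here are the annotation, the strand setting and the treatment of multi-mapped reads. Symbols came from RefSeq (GRCh38.p14), which matched 27745 of 28395 IDs.

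Counts were tested with edgeR 4.0.16 in R 4.3.3: filterByExpr (minimum count 10, 16381 genes kept), TMM scaling and a quasi-likelihood fit to all 6 libraries (3 residual degrees of freedom), two-sided, with Benjamini-Hochberg adjustment over all genes and a threshold of 0.05. The SE is the absolute log2 fold change over the square root of F. The common biological coefficient of variation was 0.0839. Total counts of 16589153 to 20842099 per library set the precision. Replicates differed by more than counting noise (chi-square per degree of freedom 5.38 to 10.2), so none were merged. The procedure was tested on simulated data.

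The members and lists were chosen with earlier results of these data known. Values in every library are given for the 10 members with the largest change with GSK3326595, the 6 with palbociclib, and those called between the inhibitors, called lower or called in none. From the 3 other lists, of 94 genes, MDM2, MDM4, PPM1D and CDKN1A were always named (1 further gene is not reported here), with the 3 largest called changes with GSK3326595 and the 2 largest between the inhibitors at a mean of at least 2 CPM. Alternatives were DESeq2 1.42.0, its size factors in edgeR, library totals, no filter, a filter at 1 CPM, the 2 compared groups alone, the replicate number as a block, and each library left out.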

Additional observations from a re-analysis of the deposited data

How the results depend on the processing

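No called log2 fold change of a member or list gene changed direction under any of the 13 alternatives. The number of members called higher with GSK3326595 against DMSO was 32 with DESeq2 and 30 to 31 with a library left out, and with palbociclib it was 25 and 19 to 28. Higher with GSK3326595 than with palbociclib were 16 with DESeq2 and 14 to 18 with a library left out, and lower were 2 to 4. The 2 members called lower with palbociclib became 1 with DESeq2, with its size factors used in edgeR, and when every gene was tested, and 0 to 2 with a library left out. In graded order were 19 members with DESeq2 size factors and 21 with library totals or another filter. The cause was not tested.

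The replicate numbers do not show what they mark, and with 2 pairs the check cannot pair the samples (deviations of same-numbered libraries correlated at 0.14 to 0.341 across genes). With the replicate number as a block, the members called were 32 higher and 1 lower with GSK3326595 against DMSO, 29 and 2 with palbociclib, and 23 and 4 between the inhibitors. Over all genes the block raised the calls with GSK3326595 from 1406 to 2826 higher and from 1675 to 2943 lower. With a library left out these were 637 to 1578 and 1072 to 1652, with palbociclib 2043 to 3651 higher and 1964 to 3692 lower (3159 and 3311 with all libraries), and between the inhibitors 1633 to 2688 and 1679 to 2854 (2989 and 2718). Depth limits TNFRSF10C, at 4 to 38 counts, and SPATA18, at 0.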

Other observations

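Among the 56 further direct p53 targets, some stood higher with palbociclib than with GSK3326595. They were chosen after their values were seen. ORAI3, a calcium channel subunit, was at 39.9 and 37.3 CPM with GSK3326595, 67.8 and 58.4 CPM with palbociclib and 34.3 and 29.9 CPM with DMSO. NADSYN1, which makes NAD, was at 25.7 and 24.8 CPM with GSK3326595, 42.6 and 41.7 CPM with palbociclib and 22.0 and 19.9 CPM with DMSO. PGPEP1, a peptidase gene, was at 133 and 134 CPM with GSK3326595, 209 and 199 CPM with palbociclib and 96.7 and 83.4 CPM with DMSO. In all 3 both palbociclib libraries lay above the other 4. The difference of GSK3326595 from palbociclib was -0.71 ± 0.110 (edgeR adjusted p = 0.000488) for ORAI3, -0.74 ± 0.102 (edgeR adjusted p = 0.000221) for NADSYN1 and -0.61 ± 0.0892 (edgeR adjusted p = 0.000314) for PGPEP1. Against DMSO, the PGPEP1 rise with GSK3326595 was 0.57 ± 0.0906 (edgeR adjusted p = 0.00129), while ORAI3 and NADSYN1 were not called, at 0.27 ± 0.113 (edgeR adjusted p = 0.123) and 0.27 ± 0.106 (edgeR adjusted p = 0.102).

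Other genes of that list rose with GSK3326595 and were not called with palbociclib, also chosen after their values were seen. ATF3, a stress transcription factor, was at 16.0 and 18.9 CPM with GSK3326595, 8.38 and 6.63 CPM with palbociclib and 7.64 and 5.99 CPM with DMSO. FHL2, a LIM domain cofactor, was at 57.2 and 61.4 CPM with GSK3326595, 34.2 and 34.1 CPM with palbociclib and 32.9 and 32.0 CPM with DMSO, and ASCC3, a helicase of alkylation repair, at 199 and 224 CPM with GSK3326595, 126 and 129.8 CPM with palbociclib and 123 and 133 CPM with DMSO. Both GSK3326595 libraries lay above the other 4 for each gene. The differences between the inhibitors were 1.22 ± 0.175 (edgeR adjusted p = 0.000295) for ATF3, 0.80 ± 0.0945 (edgeR adjusted p = 9.15e-05) for FHL2 and 0.73 ± 0.0890 (edgeR adjusted p = 0.000106) for ASCC3. ITGA3, an integrin subunit, was the gene of the list that fell with GSK3326595, at 433 and 439 CPM with GSK3326595, 1055 and 952 CPM with palbociclib and 892 and 820.4 CPM with DMSO with a log2 fold change of -0.97 ± 0.103 (edgeR adjusted p = 8.49e-05).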
